A study of Mus musculus with 4 samples.

Results

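Zic1, Zic2, Zic4, Zic5 and Gli1 to Gli3 encode related C2H2 zinc finger transcription factors, and the H3K27me3 peaks at these 7 genes, of 21911 protein-coding genes, are described here. H3K27me3 is the trimethylation of lysine 27 on histone H3 that Ezh2, the main catalytic subunit of Polycomb repressive complex 2, places on genes that are kept silent. The genes were chosen by name. Their peaks were all those that the authors' annotation assigned to one of the 7 genes, together with those lying in a gene or within 20 kb of it. This gave 65 of the 10223 peaks with 500 cells and 34 of the 15282 peaks with 15000 cells, of which 61 and 23 lay in a gene or within 20 kb.

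The study profiled erythro-myeloid progenitors (EMPs) from mouse yolk sac at stage E10.5 by CUT&RUN, in which an antibody guides a nuclease to the mark and the released DNA is sequenced, in order to infer which genes Ezh2 may control. All 4 libraries carry the same labels, strain C57BL/6 and genotype Ezh2fl/fl; Tie2-Cre+/+ beside the words wild type, and the study describes the cells as wild type. Tie2 drives Cre in endothelium and the blood cells that arise from it. An H3K27me3 and an IgG library were made from 500 EMPs and another pair from 15000 EMPs, hence 1 library per group and no replicates, and how many embryos were pooled was not given in the sources used here. The cell numbers came from separate experiments. Cell number also went with the amplification (17 and 16 cycles), the read length (76 and 59 bp), the instrument, the sequencing depth and alignment rate (both lower with 500 EMPs) and the p threshold of the peak caller (0.01 and 0.05). None of these can be told apart from cell number, and every difference between the cell numbers below is a difference between single libraries, without a test. The peak lists used hold positions but no read counts or heights, so the length covered by peaks is given in place of a level. Of 12 genes used to recognise EMPs, including Kit, Itga2b, Runx1, Spi1 and Myb, 0 had a peak within 3 kb of the gene start with 500 EMPs. With 15000 EMPs 1 did, Gata2, with 2334 bp covered. The upper 95% Wilson limits of these shares, 24.2% and 35.4%, take in the shares over all protein-coding genes, 9.94% and 17%.

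Zic proteins act in the neural plate, neural crest and somites, and the genes described here lie in head-to-head pairs, Zic1 beside Zic4 and Zic2 beside Zic5. Gli proteins carry out the transcriptional response to Hedgehog ligands. Gli2 is the main activator, Gli3 mainly a repressor, and Gli1 an activator that is itself a target of the pathway.

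The DNA before 3 of the gene starts is shown because these starts stood in 3 different relations to the mark. The Zic1 start fell in a short gap between peaks with 15000 EMPs, the Zic5 start was under a peak in both libraries, and the Gli2 start lay beside a peak that stopped inside the gene. Each line gives the gene-strand sequence 5′ to 3′, ending at the base before the start and taken from RefSeq for GRCm38.p6, without any annotated exon. Capitals mark CG dinucleotides.

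Zic1 (chr9:91365811-91366018, minus strand): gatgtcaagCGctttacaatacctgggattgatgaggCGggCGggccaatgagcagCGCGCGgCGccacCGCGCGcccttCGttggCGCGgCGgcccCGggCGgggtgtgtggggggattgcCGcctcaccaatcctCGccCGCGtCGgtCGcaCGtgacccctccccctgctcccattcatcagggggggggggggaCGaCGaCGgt

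Zic5 (chr14:122465678-122465908, minus strand): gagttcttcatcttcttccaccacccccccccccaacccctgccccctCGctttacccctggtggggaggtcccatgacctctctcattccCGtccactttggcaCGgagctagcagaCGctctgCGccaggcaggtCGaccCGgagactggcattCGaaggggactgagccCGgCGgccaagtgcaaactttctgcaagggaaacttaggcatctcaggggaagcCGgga

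Gli2 (chr1:119053620-119053869, minus strand): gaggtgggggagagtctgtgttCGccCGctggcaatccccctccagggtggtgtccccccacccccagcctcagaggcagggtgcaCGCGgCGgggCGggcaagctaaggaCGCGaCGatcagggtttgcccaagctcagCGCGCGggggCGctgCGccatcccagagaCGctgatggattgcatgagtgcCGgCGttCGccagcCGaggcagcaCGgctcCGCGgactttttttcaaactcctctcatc

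The Zic1 stretch had 26 CG dinucleotides in 208 bases and an observed over expected CpG ratio of 0.992, and 57 of its bases were under a peak with 15000 EMPs and 0 with 500 EMPs. The Zic5 stretch had 11 in 231 bases and a ratio of 0.502, and all 231 bases were under a peak in both libraries. The Gli2 stretch had 22 in 250 bases and a ratio of 0.780, with no base under a peak in either library. Of the 7 genes, 5 had an entry in the promoter table used. The other entries, for Zic4 and Gli3, lay wholly within annotated exons of other transcripts or of the gene itself and are not shown.

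The first question was which of the genes carried the mark at their start. With 15000 EMPs all 7 genes had a peak within 3 kb of the gene start, and with 500 EMPs all except Gli3 did, that is 6 of 7. Among all protein-coding genes the share with such a peak was 9.94% with 500 EMPs and 17% with 15000 EMPs. With a limit of 1 kb all 7 genes still had a peak with 15000 EMPs. With 500 EMPs Gli1 and Gli2 dropped out and the 4 Zic genes remained. The share over all protein-coding genes was not computed at 1 kb, so these counts have no background beside them. Gene starts are those of GENCODE vM21 on mm10. For Zic4 this gene start belongs to a transcript outside GENCODE's basic set, so counts are also given for the starts of basic transcripts.

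The length covered in a window reaching 3 kb to either side of the gene start was measured next. Zic4 had 3169 bp covered with 500 EMPs and the whole window with 15000 EMPs. At its basic transcript start with the most coverage in each library, Zic4 had 3683 bp and 5916 bp. Zic5 had 3972 bp and 5633 bp. Zic2 had 3076 bp and 5327 bp. These genes had most of the window covered in both libraries. Zic1 had less than they did with 500 EMPs, 1903 bp, but 5462 bp with 15000 EMPs.

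The Gli genes lay below every Zic gene in both libraries. Gli3, the repressor, had 3222 bp covered with 15000 EMPs and 0 bp with 500 EMPs, where the nearest peak was 551727 bp away. Gli1 had 421 bp with 500 EMPs and 2606 bp with 15000 EMPs. Gli2 had 1462 bp and 2424 bp. With 500 EMPs the Zic genes ranged from 1903 to 3972 bp and the Gli genes from 0 to 1462 bp. With 15000 EMPs the Zic genes ranged from 5327 bp to the whole window and the Gli genes from 2424 to 3222 bp. The families thus did not overlap in either library. The Zic values are not independent, since the Zic1 and Zic4 starts are 3397 bp apart and their windows overlap. Zic2 and Zic5 also lie side by side. Among all protein-coding genes with a peak within 3 kb the median was 789 bp with 500 EMPs and 2744.5 bp with 15000 EMPs.

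**Figure D1:**
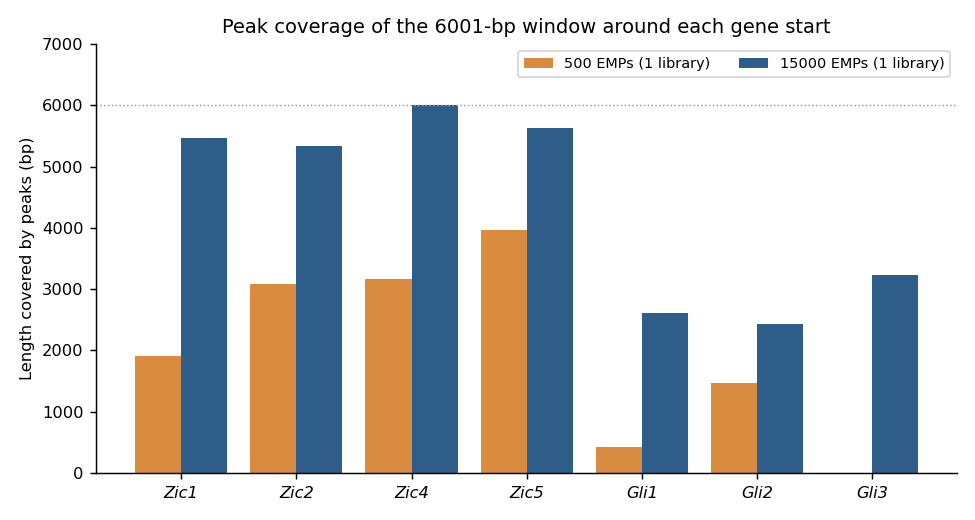
Length in bp covered by H3K27me3 peaks within 3 kb of the gene start (vertical axis; the dotted line is the whole window) for each Zic and Gli gene, with 500 EMPs in orange and 15000 EMPs in blue, 1 library each and so without error bars. The 4 Zic genes reach at least 5327 bp with 15000 EMPs and the 3 Gli genes at most 3222 bp, and Gli3 has no bar with 500 EMPs.

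In the gene and 20 kb to either side, all 7 genes had a peak with 15000 EMPs, against 30.1% of all protein-coding genes, and 6 with 500 EMPs, against 18.6%. Zic4 had 38 peaks there with 500 EMPs and 7 with 15000 EMPs, covering 34135 and 59180 bp. Zic1, which shares many of them, had 28 and 5 peaks covering 18920 and 36124 bp. The Zic2 region held 17 and 8 peaks over 18156 and 31074 bp, and the overlapping Zic5 region 16 and 8 peaks over 16494 and 30297 bp. At each of these Zic genes the larger library had fewer peaks as called and more bases covered. The order of the peak numbers depended on how peaks were split, since joining peaks within 3 kb of each other left 5 with 500 EMPs and 6 with 15000 EMPs over all 7 genes. The Gli genes had at most 2 peaks with 500 EMPs and at most 3 with 15000 EMPs.

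The order of the genes differed between the libraries. With 500 EMPs Zic5 ranked 81st of 21911 protein-coding genes by covered length, Zic4 163rd, Zic2 175th, Zic1 439th, Gli2 651st and Gli1 1506th. With 15000 EMPs Zic4, measured at its gene start, shared the first rank with all genes whose window was full. At its basic transcript starts the Zic4 window was not full. Zic5 ranked 279th, Zic1 341st, Zic2 413th, Gli3 1588th, Gli1 1950th and Gli2 2082nd. Gli3 was therefore the highest of the Gli genes in one library and without a peak in the other. The ratio of covered length with 15000 EMPs to that with 500 EMPs ran from 1.42 for Zic5 and 1.66 for Gli2 to 2.87 for Zic1 and 6.19 for Gli1.

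**Figure D2:**
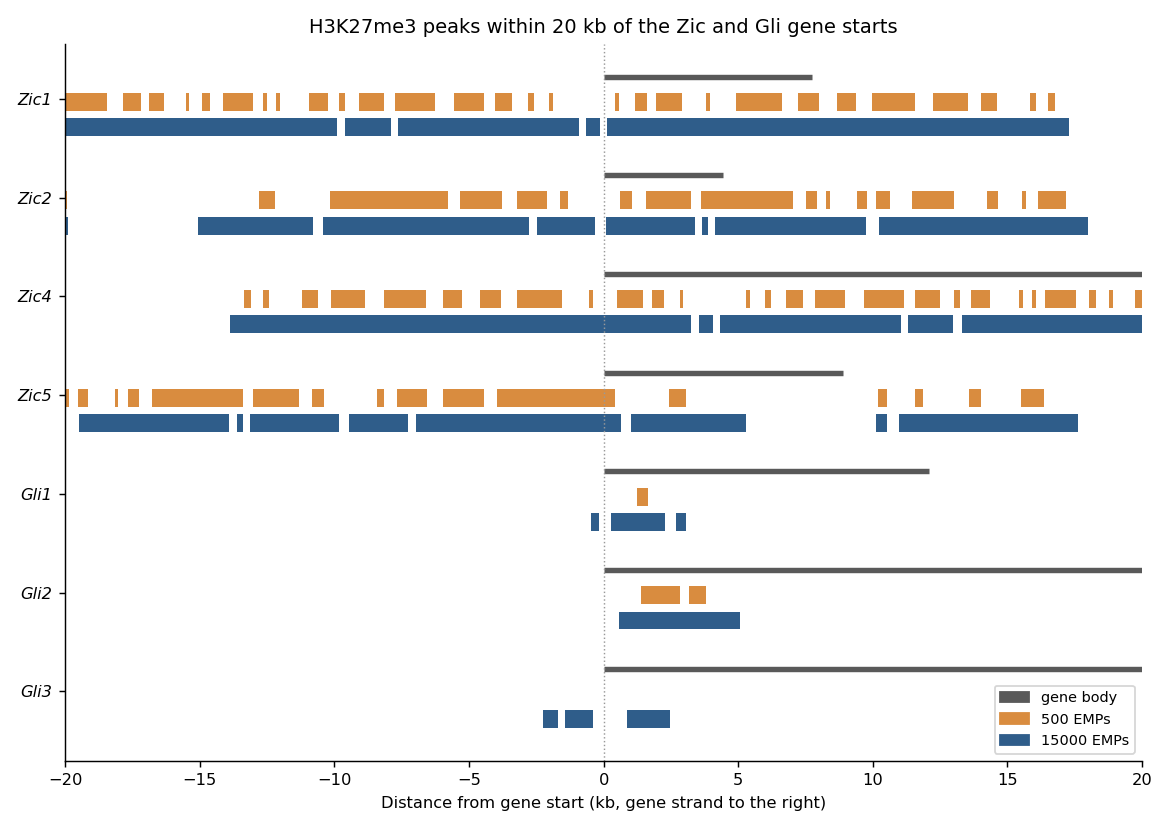
H3K27me3 peaks from 20 kb before to 20 kb after each gene start (horizontal axis in kb, each gene turned so that it reads to the right), with the gene body in grey, peaks with 500 EMPs in orange and peaks with 15000 EMPs in blue. Zic genes show trains of peaks on both sides of the start, and Gli genes show peaks only within about 5 kb of it.

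Zic1 and Zic4 lie on opposite strands of chromosome 9 and share one broad domain. When peaks no more than 3 kb apart were chained, the domain with 15000 EMPs ran from 91348515 to 91421520, a span of 73006 bp made of 15 peaks that covered 65887 bp or 90.2% of it. By span it was the third of 6706 such domains in that library. With 500 EMPs the chain ran from 91349058 to 91408975, a span of 59918 bp made of 38 peaks that covered 34135 bp or 57.0%, the fourth of 3971. Both genes lie entirely inside the span. The widest peak, 17159 bp from 91348515 to 91365673 with 15000 EMPs, covered 7616 of the 7753 bp of Zic1, including all of its coding sequence, together with the 5′ part of Zic4. Within it lay 12 peaks of the 500-EMP list that covered 8874 bp or 51.7%.

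The widest peak with 500 EMPs in this domain was not at either gene start. It measured 7430 bp, from 91384261 to 91391690, the ninth widest of the 10223 peaks of that list, and lay over the 3′ part of Zic4 and beyond its end. Past Zic4 the domain went on into Gm29478, a long intergenic RNA gene. There the last 8 peaks of the 15000-EMP domain, between 91410689 and 91421520, had no counterpart with 500 EMPs, and they were 279 to 1531 bp wide.

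Zic2 and Zic5 lie head to head on chromosome 14, with 9758 bp between their starts. Their domain spanned 33038 bp with 15000 EMPs (122460381 to 122493418, 7 peaks, 93.7% covered) and 29987 bp with 500 EMPs (122462613 to 122492599, 16 peaks, 60.4% covered). By span it ranked 58th with 15000 EMPs and 26th with 500 EMPs. A peak of 7644 bp with 15000 EMPs (122465017 to 122472660) covered the Zic5 start and most of the stretch between the genes. The 500-EMP peak at the same place measured 4373 bp (122465273 to 122469645), covered the first 405 bp of Zic5 and was the widest at this pair. The chain ended inside Zic5, of which 55.5% was covered with 15000 EMPs and 11.7% with 500 EMPs, whereas 86.5% and 66.2% of Zic2 were covered.

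**Figure D3:**
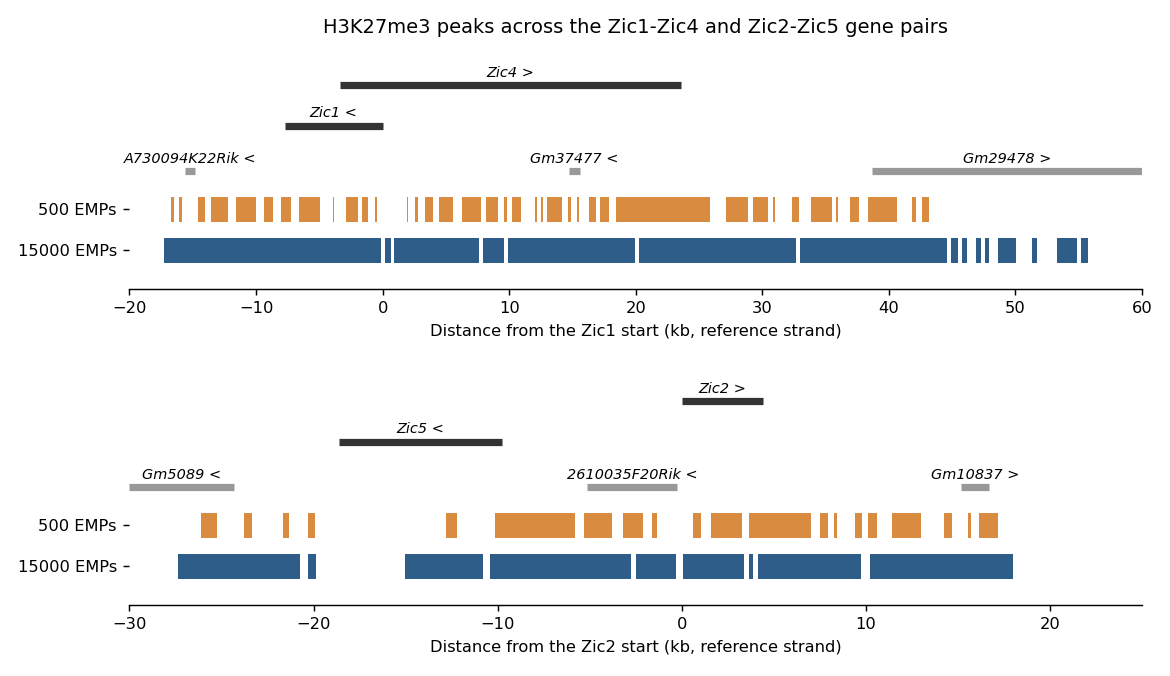
Peaks with 500 EMPs (orange) and 15000 EMPs (blue) across the Zic1-Zic4 pair and the Zic2-Zic5 pair, with gene bodies above (arrowheads give the strand) and the distance in kb from the Zic1 or the Zic2 start along the horizontal axis. Blue bars fill 90.2% and 93.7% of the chained domains and orange bars 57.0% and 60.4%.

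Peaks at the Gli genes were few and close to the start. Gli2, a gene of 219488 bp on chromosome 1, had 1 peak with 15000 EMPs, 4502 bp from 119048541 to 119053042, and 2 with 500 EMPs, of 609 and 1462 bp, both inside it. The 15000-EMP peak began 577 bp into the gene and lay in introns, with 0 bp of exon covered. Gli1, 12093 bp on chromosome 10, had 3 peaks with 15000 EMPs, of 360, 2009 and 291 bp between 127338920 and 127342436, and 1 with 500 EMPs, of 421 bp, which lay inside the 2009-bp peak. Gli3, 266792 bp on chromosome 13, had 3 peaks with 15000 EMPs, of 573, 1050 and 1599 bp between 15460965 and 15465691. None of them was found with 500 EMPs. In all 3 genes the rest of the body was without peaks: 2.05% of Gli2, 19.6% of Gli1 and 0.599% of Gli3 was covered with 15000 EMPs.

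The DNA that encodes zinc fingers was under peaks, in whole or in part, in each Zic gene with 15000 EMPs. With 500 EMPs this held for Zic2 and Zic4 only, and in the Gli genes such DNA was under no peak. C2H2 fingers were located by a regular spacing of cysteines and histidines in the translated coding sequence, which found 3 fingers in each Zic gene and 4 in each Gli gene and passes over fingers with another spacing. With 15000 EMPs peaks covered all 201 bp of finger-coding DNA in Zic1, all 207 bp in Zic4, 195 of 201 bp in Zic2 and 69 of 207 bp in Zic5. With 500 EMPs they covered 111 bp in Zic2 and 69 bp in Zic4 and none in the others. In each of Gli1, Gli2 and Gli3 0 of 285 bp was covered in either library. Of the whole coding sequence, 83.0% of 5887 bp was covered in the Zic genes with 15000 EMPs and 33.5% with 500 EMPs, where Zic5 had 2.41% and Zic4 65.6%. In the Gli genes 0 of 12714 bp was covered in either library. Gene length moved with the family, from 4418 to 26936 bp in the Zic genes and from 12093 to 266792 bp in the Gli genes, and its part in this was not tested.

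Whether peaks ran across the start itself or stood close on both sides of it was counted next. With 15000 EMPs 2 genes had a peak across the gene start, Zic4 and Zic5, against 8.64% of all protein-coding genes. With 500 EMPs 1 did, Zic5, against 1.41%. With the starts of basic transcripts the genes were Zic4 and Zic5 in both libraries, against 1.75% with 500 EMPs and 9.84% with 15000 EMPs. Among genes with a peak within 3 kb, the share with a peak across the gene start was 14.1% with 500 EMPs and 50.8% with 15000 EMPs. A further 4 genes, Zic1, Zic2, Gli1 and Gli3, had their start in a gap with 15000 EMPs, with a peak ending within 1 kb on each side, against 2.71% of all protein-coding genes and 15.9% of those with a peak within 3 kb. With basic transcript starts they were the same 4 genes, against 3.45%. With 500 EMPs 1 gene, Zic4, had its start in such a gap, against 1.8% of all protein-coding genes and 18.1% of those with a peak within 3 kb. With basic transcript starts it was again Zic4 alone, against 2.37%.

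The gap at Zic1 measured 288 bp (91365674 to 91365961), with 151 bp free before the start and 136 bp after it, and takes in most of the Zic1 stretch printed above. At Zic2 it was 387 bp (122475121 to 122475507), at Gli1 454 bp and at Gli3 1260 bp (15462833 to 15464092). Over the 593 genes with such a gap the median was 609 bp and the range 237 to 1696 bp. No gap shorter than 237 bp exists anywhere in the 15000-EMP list and none shorter than 305 bp in the 500-EMP list, so a shorter interruption could not be seen. At Gli2 the free stretch was open on the far side, since the next peak upstream lay beyond 22382 bp without one.

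The CpG content of these gaps was set against the 500 bp on either side, and in 3 of 4 gaps with 15000 EMPs it was above both, as it was for 70% of the 593 genes with such a gap, so this count was near the background. The observed over expected ratio was 1.02 in the Zic1 gap, against 0.748 and 0.380 on its left and right. It was 0.700 in the Gli1 gap against 0.362 and 0.515, and 0.951 in the Gli3 gap against 0.361 and 0.928. At Zic2 the ratio of 0.915 lay between those of its flanks, 0.684 and 1.05. With 500 EMPs the ratio was 0.725 in the gap at the Zic4 gene start, against 0.666 and 0.358, and 73.2% of the 395 genes with such a gap had a ratio above both flanks. The wider free stretches around the Zic1 and Zic2 starts with 500 EMPs, 2337 and 1940 bp, lay between their flanks, with 0.640 against 0.788 and 0.152 and with 0.851 against 0.512 and 0.878. In the 1001 bp around the gene start the ratio was above the median of all protein-coding genes, 0.552, for 6 of the 7 genes, from 0.564 for Zic5 to 0.935 for Gli3, and was below it for Gli1 (0.540).

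In 200-bp bins within 3 kb of the starts, coverage was then compared by CpG density. In the Zic genes the 17 bins with at least 10 CpG per 100 bases were covered to 19.8% with 500 EMPs and the other 103 bins to 55.6%. With bins counted along the reference strand instead of the gene strand, 16 bins were dense and were covered to 14.8%. With 15000 EMPs the shares were close, 92.6% and 93.6%. In the Gli genes the 9 dense bins were covered to 0% with 500 EMPs and 19% with 15000 EMPs, and the other 81 bins to 11.6% and 48.8%. Over every gene marked within 3 kb with 15000 EMPs, dense bins were covered to 3.51% against 11.9% for the others with 500 EMPs, and to 43.7% against 48.1% with 15000 EMPs. Windows of Zic1 and Zic4 overlap, so some of their bins were counted under both genes, and the threshold of 10 was chosen after the densities had been seen.

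**Figure D4:**
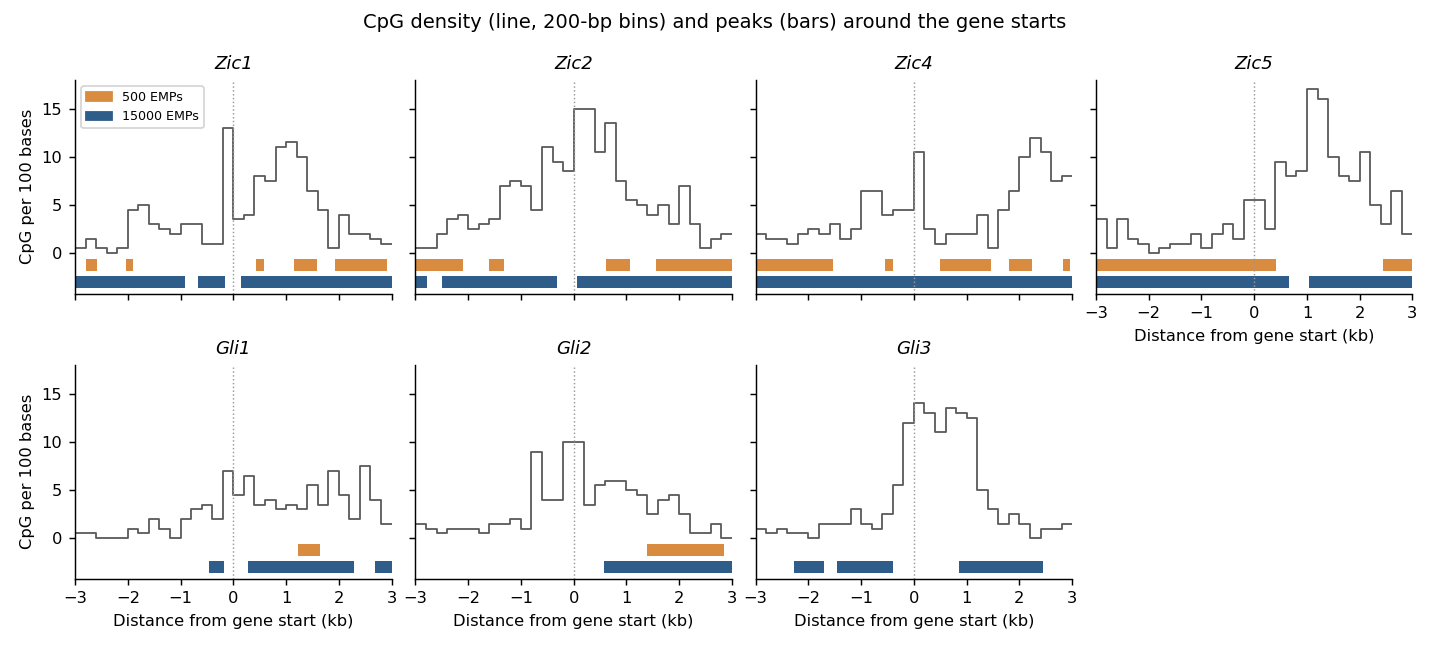
CpG dinucleotides per 100 bases in 200-bp bins (grey line, vertical axis) over 3 kb on each side of the gene start (horizontal axis in kb, gene strand), with peaks as bars below, 500 EMPs in orange and 15000 EMPs in blue. At Zic1, Zic2, Gli1 and Gli3 the start (dotted line) falls in a break of the blue bars, whereas at Zic4 and Zic5 the blue bar runs across it.

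Peaks of the libraries were set against each other at the 7 genes. Of the 61 peaks with 500 EMPs in or within 20 kb of the genes, 60 or 98.4% shared at least 1 bp with the 15000-EMP list (95% Wilson interval 91.3 to 99.7%), against 91.2% for the whole list. The exception was a narrow peak of 213 bp in an intron of Zic4 (91375436 to 91375648), which lay in a gap of the 15000-EMP list. Conversely 17 of 23 peaks with 15000 EMPs, or 73.9%, shared a base with the 500-EMP list (95% Wilson interval 53.5 to 87.5%), against 32.2% over the whole list. The intervals cover counting error only and treat neighbouring peaks as independent, which they are not. For the Zic genes the count was 15 of 16 and for the Gli genes 2 of 7. The median width of the 15000-EMP peaks was 6131 bp at the Zic genes, 1050 bp at the Gli genes and 770 bp over the list, so peak width moved with these shares, and its part in them was not tested.

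In base pairs, peaks covered 54186 bp of the Zic regions with 500 EMPs and 97218 bp with 15000 EMPs, 40.3% and 72.4% of 134349 bp. In the Gli regions they covered 2492 bp and 10384 bp, 0.403% and 1.68% of 618373 bp. All 2492 bp at the Gli genes and 97.2% of the 54186 bp at the Zic genes were also covered with 15000 EMPs.

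Some peaks that the annotation assigned to Gli2 lay farther out. Upstream of Gli2, 15000-EMP peaks of 302 and 1386 bp (119076002 to 119077953) lay between -24334 and -22383 bp from the start, and a 492-bp peak of the 500-EMP list overlapped the wider one by 53 bp. Farther upstream of Gli2 stood a peak of 2562 bp (119188210 to 119190771), its near end at -134591 bp from the start, which held 2 peaks of 137 bp, the smallest width in the 500-EMP list. A further 500-EMP peak of 137 bp (119191104 to 119191240) lay beyond it and overlapped no 15000-EMP peak. None of these outlying peaks overlapped a GENCODE gene. Assignment was by position alone, and whether the regions act on Gli2 was not measured.

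Genes next to the Zic and Gli genes were looked at for how far the mark reached. At the Zic pairs the neighbours within 20 kb mostly had a peak within 3 kb of their start in both libraries. Among them were 2610035F20Rik, a transcript that starts 236 bp from Zic2 on the other strand (3050 and 5327 bp covered), and the protein-coding genes Gm10837 (2469 and 5833 bp) and Gm5089 (1595 bp and the whole window). The exception was Gm28652, with 0 bp in both. Around Gli1, Mars, Arhgap9, Inhbe, Inhbc, Gm6283 and the antisense gene Gm47200 all had 0 bp in both libraries. Most protein-coding genes likewise had no such peak, since the share with one was 9.94% with 500 EMPs and 17% with 15000 EMPs. At Gli3 the antisense-strand neighbours Gm6556 and Gm26645 start 501 and 1940 bp from it and had 3222 and 1826 bp with 15000 EMPs and 0 bp with 500 EMPs, under the same peaks as Gli3. Around Gli2 Gm26831, which starts 4850 bp away, and Mir6346 had 0 bp in both.

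As Gli proteins are the end of the Hedgehog pathway, the rest of the pathway was counted in the same way. All 3 ligands had a peak within 3 kb in both libraries. Shh, which patterns the neural tube and limb, had 1960 bp covered with 500 EMPs and 4916 bp with 15000 EMPs, Ihh of cartilage and gut 2832 and 5726 bp, and Dhh of gonad and nerve sheath 2401 and 3993 bp. Of 6 receptors and coreceptors, Ptch1, Boc and Lrp2 had a peak with 500 EMPs, and all 6 did with 15000 EMPs. Ptch1, the main receptor and like Gli1 a target of the pathway, had 1006 and 4424 bp. Boc, a coreceptor, had 713 and 5038 bp, and the endocytic receptor Lrp2 had 2033 and 5724 bp. The ligand-binding inhibitor Hhip with 789 bp and the coreceptors Cdon with 1622 bp and Gas1 with 2059 bp were covered with 15000 EMPs and had 0 bp with 500 EMPs.

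None of the 11 components that carry the signal inside the cell had a peak within 3 kb in either library. They were Smo, the membrane protein that starts the signal, Sufu and Kif7, which hold and regulate Gli proteins, the kinase genes Stk36, Gsk3b, Csnk1a1 and Prkaca, the ubiquitin ligase genes Spop and Cul3, and the cilium genes Gpr161 and Ift88. A share of 0 of 11 has an upper 95% Wilson limit of 25.9%, which takes in the shares of 9.94% and 17% over all protein-coding genes, and several of these components also serve other pathways.

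Other zinc finger genes were counted beside the families. Among the Glis genes, the nearest relatives, Glis1 had 1082 and 3727 bp covered with 500 and 15000 EMPs, Glis3 had 0 and 2085 bp, and Glis2 had 0 bp in both. Of 20 developmental C2H2 genes 17 had a peak with 500 EMPs, all except Sall4, Snai1 and Zfpm2, and 20 with 15000 EMPs, with a median of 1710.5 and 5180.5 bp covered. The corresponding medians of the 7 Zic and Gli genes were 1903 and 5327 bp, and of all protein-coding genes 0 bp. The pooled medians hide a split, with 3122.5 and 5547.5 bp for the Zic genes and 421 and 2606 bp for the Gli genes. Of 14 C2H2 genes used in blood or in all cells, Gfi1 had a peak with 500 EMPs (770 bp) and with 15000 EMPs (4801 bp). Klf2 (544 bp) and Zbtb16 (502 bp) had one with 15000 EMPs alone, and the other 11 had none in either library. The shares of 7.14% and 21.4% were near those over all protein-coding genes, 9.94% and 17%.

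**Figure D5:**
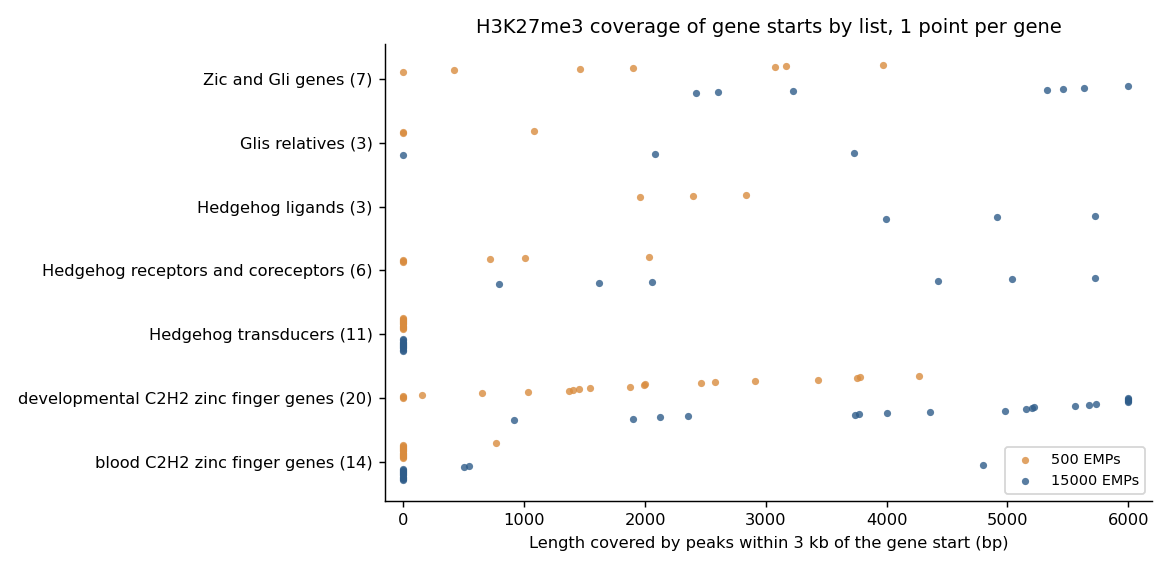
Length in bp covered by peaks within 3 kb of the gene start (horizontal axis), 1 point per gene, for the Zic and Gli genes and 6 other lists with the number of genes in brackets, 500 EMPs in orange and 15000 EMPs in blue. All 11 Hedgehog transducers sit at 0 bp in both libraries, as do most blood zinc finger genes, while all 20 developmental zinc finger genes lie above 0 bp with 15000 EMPs.

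Finally, the genes whose covered bases lay most like those of each Zic or Gli gene were sought among all other protein-coding genes more than 100 kb away. Likeness was the Jaccard index, the bases covered at the same distance from the start in both genes over those covered in either, within 10 kb of the start and summed over both libraries. The most similar to Zic1 was Ebf3 (0.750), to Zic2 Hoxc10 (0.809), to Zic4 Hoxd13 (0.761) and to Zic5 Raet1e (0.733). For Gli1 it was Rgs9bp (0.723), for Gli2 Ncoa1 (0.779) and for Gli3 Neo1 (0.785), which like Gli3 had 0 bp covered within 3 kb with 500 EMPs. The index is a description of peak shape, and its best values pick the highest of many genes.

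The consensus of Gli and Zic binding, GACCACCCA, was searched on both strands within 3 kb of the gene starts. None of the 7 windows held it. Of the windows of all protein-coding genes 4.92% did, and 6.23% of those with a 15000-EMP peak. With shares this low, a count of 0 of 7 is near the background, and the Zic1 and Zic4 windows overlap. The absence of these letters says nothing of binding by either family.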

How the data were processed

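The authors used Bowtie2 (version 2.2.1) to align reads to mm10 (GRCm38) and MACS2 (version 2.1.2, broad mode) to call peaks per H3K27me3 library with IgG as the control, at a p threshold of 0.01 for 500 EMPs and 0.05 for 15000 EMPs. The command listing in the study's reporting summary states the same thresholds but names the read files of the other cell number beside each, and the labels of the deposited lists were followed. Annotation was by ChIPpeakAnno version 3.20.1. The deposited files used here hold peak positions, and per peak the nearest genes and a distance in bp, with no score or count, so the depth behind a peak cannot be read from them. IgG peaks were not used here.

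Peak coordinates were converted to 1-based positions, and 0 peaks ran past a chromosome end of the GRCm38 genome used. Gene models were those of GENCODE vM21, with 21911 protein-coding gene names outside the mitochondrial genome. Covered lengths, overlaps (at least 1 bp) and CpG ratios were computed in Python version 3.11.15 with functions checked on simulated intervals, and Wilson intervals with scipy version 1.17.1. No test was run, since each group held 1 library.

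The genes, lists and comparisons were chosen with earlier results of these data known. Some genes of the lists are not reported here. Named genes were the 7 genes, list members with (or, if fewer, without) a peak within 3 kb, genes within 20 kb, and the gene with the highest Jaccard index. The EMP markers and Hedgehog transducers without a peak are named outside this rule, after their values were seen. Fingers were found in coding sequence translated from the genome, because no protein table was used. Gaps at gene starts and the CpG classes were added after the data had been seen.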

Additional observations from a re-analysis of the deposited data

How the results depend on the processing

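With 1 library per group no replicate could be left out. No paired analysis was possible because each group held 1 library. Counts of genes with a peak within 3 kb, and the covered lengths with 15000 EMPs, stayed within 1.5 times of their values under every alternative run for them. Of 56 alternative values for counts, covered lengths and shares over all 7 genes 39 stayed within that limit or, for shares, the interval, and 17 did not. For single genes 50 values stayed and 6 moved, all after joining neighbouring peaks with 500 EMPs, when up to the whole window was covered at the Zic genes. Joining moved most. Joined within 1 kb, the peaks at the genes numbered 17 with 500 EMPs and 7 with 15000 EMPs in place of 61 and 23, and joined within 3 kb 5 and 6, with 98879 bp covered with 500 EMPs in place of 56678. Peaks then lay across 2 (1 kb) and 4 (3 kb) gene starts with 500 EMPs in place of 1, and across 5 and 6 with 15000 EMPs in place of 2, which follows from filling the gaps. With basic transcript starts 2 starts lay under a peak with 500 EMPs. Starts in a gap with 500 EMPs numbered 3 with peaks within 2 kb on each side, in place of 1. A flank of 50 kb gave 35 peaks with 15000 EMPs. Among 500-EMP peaks, those with a counterpart made up 100% after joining within 1 kb or 3 kb and 8.20% where 50% of both peaks had to be shared. The reverse share was 26.1% where 50% of the 15000-EMP peak and 21.7% where 50% of both had to be shared. Without the shortest peaks of each list no value moved by more than 1.5 times. The peak lists used give no read depth, peak height or background reads, and signal tracks were not used here. Per the study, the 500-EMP library was sequenced less deeply and fewer of its reads aligned, and their part in the absence of peaks there, that at Gli3 included, was not tested.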

Other observations

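Markers of other embryonic tissues were counted in the same way, without a test, beside the shares of 9.94% with 500 EMPs and 17% with 15000 EMPs over all protein-coding genes. All 5 neural markers (Sox1, Sox2, Sox10, Pax6 and Neurog2) and all 4 mesenchyme markers (Twist1, Prrx1, Pdgfra and Col1a1) had a peak within 3 kb in both libraries. With 15000 EMPs the covered length ran from 3441 bp at Sox10 to 5715 bp at Sox2, and from 3001 bp at Col1a1 to the whole window at Pdgfra. Of 6 endothelial markers, Sox17 (2632 bp and the whole window) had a peak in both libraries and Kdr (274 bp) with 15000 EMPs alone, while the other 4 had none.

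The forebrain zinc finger gene Fezf1, singled out after its values were seen, had a longer stretch covered with 500 EMPs (4268 bp) than with 15000 EMPs (4006 bp), unlike the 7 Zic and Gli genes, which all had more with 15000 EMPs.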
